A study of Mus musculus with 28 samples.

Results

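Stellate cells and fibroblasts change their transcripts when a tissue is injured, and 10 genes commonly used to follow that change were examined in mice that overexpress human APOBEC3B (A3B), a cytidine deaminase. The genes were taken by name: the PDGF receptors Pdgfra and Pdgfrb, the contractile genes Acta2 and Tagln, the intermediate filament genes Des and Vim, and the matrix genes Fn1, Sparc, Postn and Dcn. All 10 were found among the 35858 gene symbols of the pancreas and liver transcript files and in the gene table of a second set of livers and lungs. RNA-seq of bulk tissue was available for 28 samples, in 2 sets that were processed differently and are compared only within themselves. The set quantified with kallisto held 6 A3B and 2 control livers and 6 A3B and 2 control pancreases, all labelled with 10 days of doxycycline. The set deposited as a table of TPM held 3 A3B and 3 control samples each of liver and lung, with 15 days in the controls, 14, 14 and 10 days in the A3B livers and 10 days in the A3B lungs, so that treatment time and group cannot be told apart there.

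The A3B animals carried a doxycycline-inducible A3B-tGFP cassette placed downstream of the Col1a1 locus together with a CAGs-rtTA driver, a transactivator that is active in most cell types, so that the cells described here could carry the transgene themselves. The study's mice were young adults of 4 weeks and, per the labels, received food with 625 ppm doxycycline. Controls were mostly labelled A3B, the cassette without the driver, and the labels give all of them doxycycline food. The study elsewhere describes the 2 control animals of its liver and pancreas editing analysis as without doxycycline, so whether the controls of the kallisto set received it is unclear, and there doxycycline and the transgene cannot be told apart. The control lung 87 was labelled CAGs, the driver alone. Genotype labels and titles disagreed for 5 samples: the A3B pancreases 44 and 137 were labelled A3B alone, and the control pancreases 45 and 168 and the control liver 11 were labelled A3B + CAGS-rtTA. Groups follow the titles. In the TPM table, which lists the human transcript, A3B stood at 705.0 to 1705 TPM in the A3B livers against at most 0.144 TPM in control livers, and at 90.6 to 281.0 TPM in the A3B lungs against at most 0.526 TPM in control lungs, so the transgene level of control liver 11 goes with its title. The kallisto files were not used for such a check.

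Stellate cells are the vitamin A-storing pericytes of liver and pancreas. After injury they can become myofibroblasts, which gain alpha smooth muscle actin and lay down matrix under PDGF and TGF-beta signalling. Fibroblasts, vascular smooth muscle and pericytes also express most of these genes, Vim is expressed by many leukocytes and endothelial cells, and hepatocytes are a major source of plasma fibronectin. In bulk tissue, more cells of a type and more RNA per cell cannot be told apart. Lrat, which esterifies retinol in quiescent hepatic stellate cells, stood at 0.227 to 4.18 TPM in the livers of the kallisto set and was listed at 0 in every sample of the TPM table.

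Estimated counts per sample totalled 65161064 to 98780481 in A3B livers, 104834346 and 118976013 in control livers, 74836907 to 87633469 in A3B pancreases and 87288183 and 95604352 in control pancreases. The TPM table gives no depth. The control pancreases differed from each other. Control 168 had a summed level of skeletal muscle markers of 25.1 TPM against 1.59 TPM in control 45, of adipocyte markers of 655.2 against 52.7 TPM, of B cell markers of 76.0 against 0.743 TPM and of macrophage markers of 557.3 against 49.3 TPM. The A3B liver 48 had low endothelial and macrophage sums of 26.0 and 41.5 TPM, and the A3B liver 28 of the TPM-table set had a skeletal muscle sum of 255.2 TPM and a hepatocyte marker sum of 2557 TPM, the lowest of the 6 livers of that set.

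In the pancreas, both PDGF receptors, Vim and the matrix genes Fn1, Sparc and Postn were higher in A3B mice, whereas Dcn, Des and the contractile genes Acta2 and Tagln were not called. Of the 10 genes, 6 rose and 0 fell at an adjusted p under 0.05 (edgeR quasi-likelihood test, adjusted over 19123 genes): Pdgfra, Pdgfrb, Vim, Fn1, Sparc and Postn. DESeq2 called the same 6 genes higher and also Tagln (-1.42, adjusted p = 0.0429) and Des (-1.20, adjusted p = 0.0451) lower. Over all genes tested by edgeR, 17.0% were called higher and 14.9% lower. The median log2 fold change was 1.24 for the 10 genes and 0.09 for all genes.

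Pdgfra, the receptor for PDGF-A and PDGF-C that marks fibroblasts, was at 0.345 TPM in control 45 and 1.49 TPM in control 168, and ran from 10.2 to 21.9 TPM in the A3B pancreases with a median of 17.0 TPM. The groups did not overlap, and the mean was 16.7 ± 4.39 TPM (SD, n = 6) against 0.917 ± 0.81 TPM (SD, n = 2). The normalised change was 2.07 ± 0.36 (log2 fold change ± SE, adjusted p = 0.00211). Pdgfrb, the PDGF-B receptor of pericytes and stellate cells, was at 0.488 and 1.09 TPM in the controls and at 8.64 to 14.7 TPM in the A3B pancreases, with a median of 11.97 TPM. It had the lowest adjusted p of the 10 genes, at 0.000573, for a log2 fold change of 1.73 ± 0.23 (SE).

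Fn1, which encodes fibronectin, was at 1.32 TPM in control 45, 7.72 TPM in control 168 and 42.2 to 67.8 TPM in the A3B pancreases, with a median of 61.6 TPM. It rose by 1.83 ± 0.41 (log2 fold change ± SE, adjusted p = 0.00703). Sparc, a collagen-binding matricellular protein, was at 28.7 and 81.6 TPM in the controls and at 462.1 to 955.9 TPM in the A3B pancreases, and rose by 1.48 ± 0.38 (adjusted p = 0.0138). Postn, or periostin, was at 1.15 and 5.19 TPM in the controls and at 29.8 to 116.5 TPM in the A3B pancreases, and rose by 2.68 ± 0.61 (adjusted p = 0.00909). A3B pancreas 53 lay far above the others for Postn, the next highest being at 61.3 TPM.

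Vim, the intermediate filament of mesenchymal cells and leukocytes, was at 15.6 and 44.5 TPM in the controls and at 158.3 to 367.6 TPM in the A3B pancreases, and rose by 0.99 ± 0.31 (adjusted p = 0.0342). Dcn, a small proteoglycan that binds collagen, was at 17.8 and 99.7 TPM in the controls and at 132.8 to 384.4 TPM in the A3B pancreases, yet its normalised change was 0.32 ± 0.43 (adjusted p = 0.597). In TPM, 7 of the 10 genes lay above both controls in every A3B pancreas, and 71.9% of all genes tested had groups on separate sides, so this count is close to the background.

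**Figure D1:**
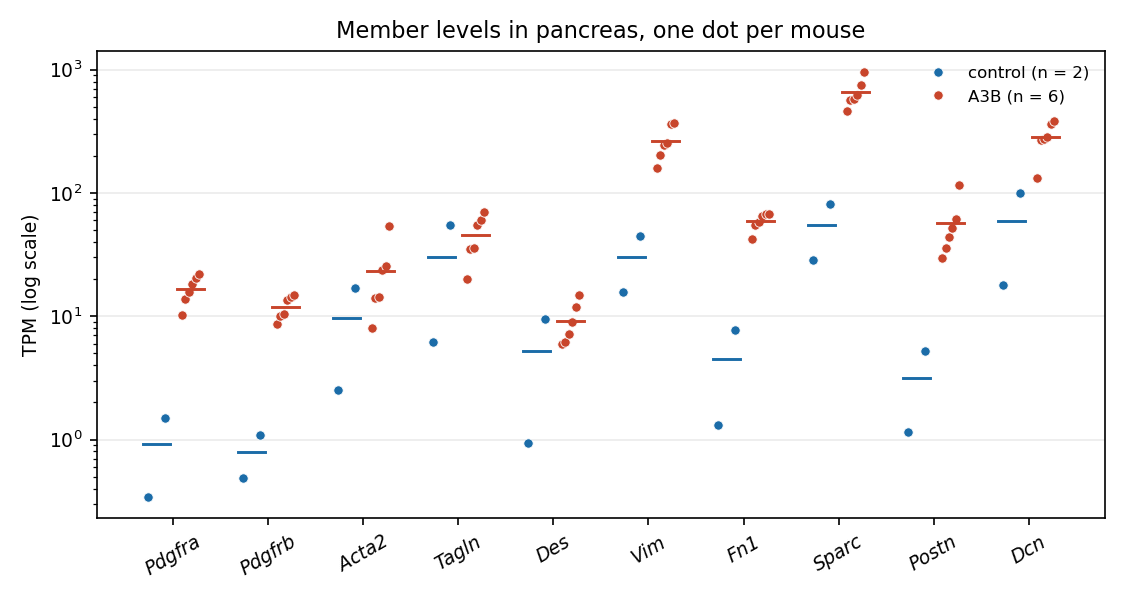
Levels of the 10 genes in pancreas in TPM on a log axis, with a dot per mouse and a line at the mean of 2 control or 6 A3B mice. Pdgfra, Pdgfrb, Vim, Fn1, Sparc, Postn and Dcn lie above both controls in all 6 A3B mice, while Acta2, Tagln and Des overlap control 168.

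Acta2, which encodes alpha smooth muscle actin, was at 2.52 TPM in control 45, 16.8 TPM in control 168 and 8.09 to 54.0 TPM in the A3B pancreases. Tagln, an actin-binding protein of smooth muscle, was at 6.16 and 54.4 TPM in the controls and at 20.1 to 70.0 TPM in the A3B pancreases. Des, the filament protein of muscle and of rodent stellate cells, was at 0.934 and 9.51 TPM in the controls and at 5.94 to 15.0 TPM in the A3B pancreases. For all 3 genes the A3B values lay on both sides of control 168 and above control 45. Their log2 fold changes were -0.77 ± 0.55, -1.37 ± 0.55 and -1.16 ± 0.44 (SE), with adjusted p of 0.31, 0.0887 and 0.0711. Without control 168, Tagln and Des were at 0.27 and 0.30, and without control 45 they were lower at -2.10 and -1.84 (adjusted p = 0.0149 and 0.00466), so that the direction rests on which control is used. Smooth muscle genes outside the 10 were also higher in control 168 than in control 45: Cnn1 was at 6.76 against 0.308 TPM and Actg2 at 10.9 against 0.191 TPM. The part of these differences in the contractile result was not tested.

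The scaling bears on every value in pancreas. Acinar markers summed to 251870 and 274458 TPM in the controls and to 72458 to 189359 TPM in the A3B pancreases, and the TMM factors, which correct for such dominant transcripts, were 0.21 and 0.443 in the controls and 1.3 to 1.79 in A3B. With total counts alone the median of all genes moved to 2.29, Pdgfra was at 4.11 and Pdgfrb at 3.94, and Acta2, Tagln and Des turned to 1.29, 0.55 and 0.78 without passing the test. Dcn was called higher under that scaling, at 2.32 (adjusted p = 0.00777), near the median of all genes, and so were 13473 of 19123 genes. With limma on log2(TPM + 1), 11401 of 13590 genes were called higher. A higher call under either of these settings therefore says little about a gene. Over single omissions Pdgfra ran from 1.70 to 2.62, Pdgfrb from 1.65 to 1.79 and Fn1 from 1.29 to 2.78. Pdgfra, Pdgfrb and Fn1 were called higher under all 14 alternatives run in pancreas, with log2 fold changes of 1.70 to 4.11, 1.65 to 3.94 and 1.29 to 3.80. Sparc lost its call without control 45 (1.36, adjusted p = 0.0789) and without the A3B pancreases 44 and 137 whose genotype label disagrees (1.37, adjusted p = 0.0515). Postn lost its call without control 45 (2.40, adjusted p = 0.0769). Vim lost its call under 7 of the 14, among them the omission of either control (0.86 and 1.16, adjusted p = 0.163 and 0.0624).

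A ratio within a library is free of that scaling. Pdgfra over Acta2, a pair chosen after the values were seen, was 0.137 in control pancreas 45 and 0.0886 in control 168, and 0.291, 0.796, 0.929, 0.975, 1.26 and 1.28 in the A3B pancreases. All 6 lay above both controls. In the lungs of the TPM-table set the ratio was 0.559, 0.604 and 0.745 in controls and 1.16, 1.93 and 2.11 in A3B, again without overlap. In the livers of both sets the groups overlapped, with 0.462 and 1.75 in controls against 0.0838 to 1.88 in A3B in the kallisto set. These ratios are given as a description.

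Among the other genes of the activation pathway in pancreas, receptors and targets moved most. Over all genes, 17.0% were called higher and 14.9% lower. Of 12 receptors, 8 were called higher and 0 lower, with a median log2 fold change of 1.42. Tgfbr2, a TGF-beta receptor, was at 43.4 ± 7.9 TPM in A3B against 2.07 ± 2.08 TPM in controls and rose by 2.27 (adjusted p = 0.000745), Tgfbr1 rose by 1.76, Osmr, the oncostatin M receptor, by 2.02 and Itgav, an integrin that activates latent TGF-beta, by 1.20. Of 20 TGF-beta and SRF/YAP target genes, 13 were higher and 0 lower, with a median of 1.53, including Tgfbi at 2.88, Loxl1, a collagen crosslinking enzyme, at 2.51, Vcl at 2.21 and Actn1 at 1.97. Of 10 ligands tested, 3 were higher: Tgfb1 by 1.98, Pdgfc by 2.24 and Pdgfa by 1.0. Of 20 further fibroblast matrix genes, 8 were higher and 2 lower, the latter a share below that of all genes. Bgn, a proteoglycan related to decorin, was at 351.2 ± 88 TPM in A3B against 9.16 ± 5.47 TPM in controls and rose by 3.11 (adjusted p = 0.000365). Fbln2 and Lum each rose by 1.42. Efemp1 fell by 1.15 (adjusted p = 0.00417), but was higher by 0.98 with total counts alone (adjusted p = 0.0335). The median of all genes under that scaling was 2.29, and 98.5% of its calls were higher.

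Of 13 quiescent stellate cell genes tested, 3 were higher, 1 was lower and 9 were not called, against 17.0% higher and 14.9% lower of all genes. Ecm1 was higher by 2.79, Hgf by 2.78 and Cygb, a globin of stellate cells, by 1.55, while Angptl6 fell by 2.60. The summed level of the list was 144.8 to 256.2 TPM in A3B and 6.31 and 19.0 TPM in the controls, whereas the median log2 fold change of its genes after normalisation was 0.33 against 0.09 for all genes. Of 15 smooth muscle and pericyte genes, 0 were higher and 1 was lower, Cnn1, a calponin of smooth muscle, which fell by 2.85 (adjusted p = 0.039). That call was lost in 5 of 8 single omissions and rests on control 168, at 6.76 TPM: 5 of 6 A3B pancreases lay above the 0.308 TPM of control 45, and without control 168 Cnn1 was at -0.86 (adjusted p = 0.589). Pdgfa lost its call without either control (adjusted p = 0.0711 and 0.124), and Hgf lost it in 7 of 8 single omissions (adjusted p up to 0.0807). Hgf was listed at 0 TPM in control 45 and 0.191 TPM in control 168, and its fitted log2 fold change was 1.91 without control 45 and 11.39 without control 168, a value set against 0 that depends on the prior count and is no bound. Markers of some other cell types were called as well, where 17.0% of all genes were called higher and 14.9% lower. Of 10 macrophage markers, 8 were higher, with sums of 1962 to 5738 TPM in A3B against 49.3 and 557.3 TPM in controls. Of 8 acinar markers 7 were lower, of 6 ductal markers 4 were higher, of 10 endothelial markers 2 were higher, and of 4 skeletal muscle markers 3 were lower. The endothelial share was close to that of all genes. Of 8 hepatocyte markers 1 was higher and of 5 mesothelial markers 1 was lower, both calls being lost in some single omissions. Of 8 T cell, 6 B cell, 6 adipocyte and 5 lung epithelial markers, 0 were called, with medians of -1.2, -1.73, -2.39 and 0.93. Without control 45, both endothelial calls were lost (Cdh5, adjusted p = 0.127, and Lyve1, adjusted p = 0.103), as were the ductal calls of Krt19 (0.0961) and Epcam (0.177). Lyve1 lost its call in 6 of 8 single omissions. The skeletal muscle sum was 0.85 to 2.64 TPM in A3B, with control 45 inside that range at 1.59 TPM and control 168 above it at 25.1 TPM. Without control 168 the normalised changes were -3.16 for Ckm, -2.17 for Acta1 and -2.28 for Tnnt3. Without control 45 they were -5.3, -5.46 and -5.67. No marker of these lists was at 0 in all A3B pancreases, and their part in the changes of the 10 genes was not tested.

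In the livers of the kallisto set, 0 of the 10 genes passed the test against 3.66% of 17365 genes, with 1 of the 10 at an unadjusted p under 0.05 and 0 called by DESeq2. No gene of the 10 had separate groups in TPM, against 29.7% of all genes. Acta2 was at 0.524 and 2.59 TPM in the controls and at 1.39 to 8.32 TPM in the A3B livers (log2 fold change 1.12 ± 0.75, adjusted p = 0.4). Tagln was at 6.12 and 9.64 TPM in the controls and at 8.64 to 23.6 TPM in the A3B livers (0.59 ± 0.48), and Des at 1.62 and 2.66 TPM against 2.20 to 6.81 TPM (0.79 ± 0.60). The highest Des values, 6.81 TPM in liver 48 and 6.23 TPM in liver 125, were in the livers with the highest skeletal muscle sums, 55.1 and 27.2 TPM against at most 0.351 TPM in the other livers, and the part of muscle RNA in them was not tested.

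Fn1 and Sparc each lay below both controls in 5 of 6 A3B livers, and neither passed the test. Fn1 was at 286.2 and 463.7 TPM in the controls and at 130.7, 135.4, 141.5, 177.9, 213.6 and 423.4 TPM in the A3B livers, where 5 of 6 lay below both controls and the sixth, liver 125, lay between them. Its log2 fold change was -1.38 ± 0.57 (adjusted p = 0.188), and without liver 125 it was called lower at -1.93 (adjusted p = 0.0469). Hepatocyte markers summed to 33606 to 90658 TPM in these A3B livers against 87947 and 145287 TPM in the controls. Of 8 markers 1 was called lower, a call lost in some single omissions. The median of these markers was -0.37, and their part in the Fn1 values was not tested. Sparc was at 51.9 and 70.3 TPM in the controls, with 5 of 6 A3B livers below them at 7.48 to 44.4 TPM and liver 49 above them at 84.7 TPM (-1.03 ± 0.56, adjusted p = 0.297). The remaining genes had log2 fold changes of 0.66 for Pdgfra, -0.56 for Pdgfrb, 0.12 for Vim, -0.41 for Postn and 0.30 for Dcn. Liver 48 had the lowest value of the 8 livers for Pdgfra, Pdgfrb, Vim, Fn1, Sparc, Postn and Dcn, at 0.398 TPM for Pdgfra and 15.6 TPM for Dcn, together with the low endothelial and macrophage sums given above. Of 20 TGF-beta and SRF/YAP target genes in these livers, 1 rose, Skil, a TGF-beta-induced repressor of SMAD proteins, by 1.85 (adjusted p = 0.0371). Of 9 ligands tested, 1 fell, Inhba, by 2.67 (adjusted p = 0.0185). The receptor, matrix, smooth muscle and quiescent stellate cell lists held no call, where 3.66% of all genes were called. In single omissions Skil lost its call in 5 of 8 and Inhba in 3 of 8.

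**Figure D2:**
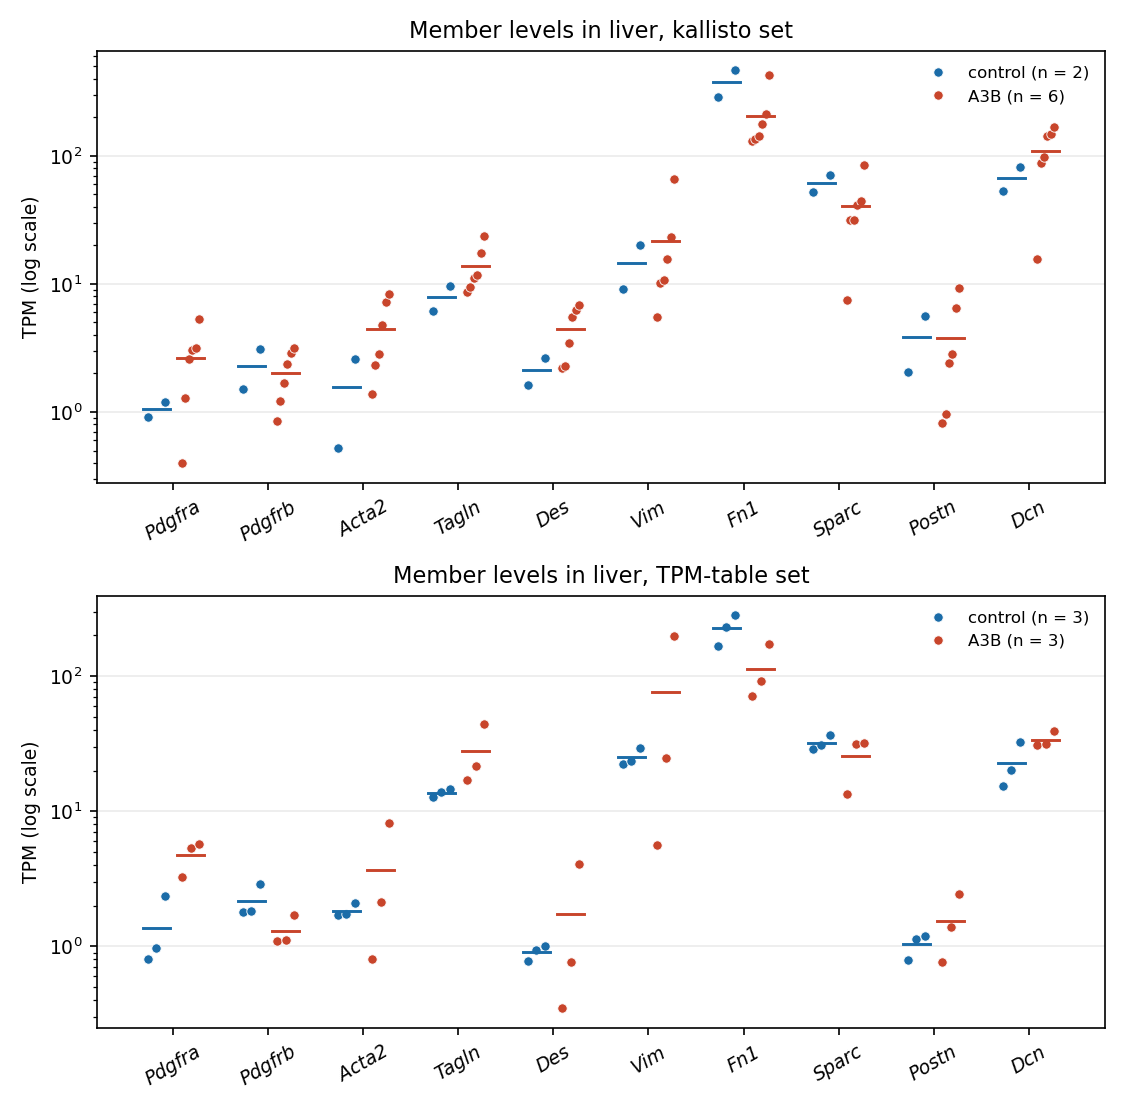
Levels of the 10 genes in liver in TPM on a log axis, kallisto set above and TPM-table set below, with a dot per mouse and a line at each group mean. Fn1 is lower in 5 of 6 A3B livers than in both controls in the upper panel, and Vim spreads from 5.67 to 197.9 TPM in the A3B livers of the lower panel.

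In the livers of the TPM-table set, 0 of the 10 genes passed the test as well (limma on log2(TPM + 1)), against 7.93% of 11507 genes, and 2 of the 10 had an unadjusted p under 0.05. Pdgfra was at 0.806, 0.977 and 2.35 TPM in the controls and at 3.28, 5.33 and 5.70 TPM in the A3B livers. These groups did not overlap, and the log2 fold change was 1.31 ± 0.35 (adjusted p = 0.0594). Without control liver 11, whose genotype label disagrees with its title, Pdgfra was called higher at 1.58 (adjusted p = 0.0355). Tagln was at 12.7, 13.8 and 14.7 TPM in the controls and at 17.0, 21.5 and 44.5 TPM in the A3B livers (0.84 ± 0.39, adjusted p = 0.18), again without overlap. Pdgfrb lay below all controls, at 1.09, 1.12 and 1.72 TPM against 1.81, 1.81 and 2.89 TPM (-0.45 ± 0.29, adjusted p = 0.314). Groups were separate for 3 of the 10 genes and for 38.9% of all genes. Fn1 was at 167.1, 232.8 and 281.9 TPM in the controls and at 71.4, 91.4 and 173.6 TPM in the A3B livers (-1.08 ± 0.41, adjusted p = 0.121). It was called lower without A3B liver 70 (-1.45, adjusted p = 0.0489). The hepatocyte sums of all 3 A3B livers, 2557 to 13494 TPM, lay below those of the controls, 14014 to 17313 TPM. Of 7 markers 1 was called lower, Serpina1c, and lost its call in 4 of 6 single omissions. The median of these markers was -0.68, and their part was not tested either. A3B liver 28 held the highest Acta2, Tagln, Des and Vim of the 6 livers, at 8.12, 44.5, 4.05 and 197.9 TPM, beside the skeletal muscle sum given above. Among its macrophage markers, Cd68 was the highest of the 6 livers, at 526.7 TPM against 34.0 to 51.2 TPM elsewhere, but Adgre1 was at 1.86 TPM, beside 1.84 TPM in A3B liver 23, 28.8 TPM in A3B liver 70 and 10.0 to 25.2 TPM in the controls, and the macrophage sum of 898.1 TPM was below the 973.9 TPM of A3B liver 70. The part of these markers was not tested. Without liver 28, Acta2 was at -0.26 and Vim at -0.99. Skil rose here too, by 2.47 (adjusted p = 0.0385), as 1 of 15 target genes tested. So did the tropomyosin Tpm1, by 1.92 (adjusted p = 0.0436), as 1 of 8 smooth muscle and pericyte genes tested. The other pathway lists held no call, where 7.93% of all genes were called. In single omissions Skil lost its call in 5 of 6 and Tpm1 in 4 of 6.

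In the lung, Pdgfra rose in A3B mice while Tagln, Vim and Sparc fell. Outside Fn1 and Dcn, the 10 genes were more abundant in control lungs than in control livers of the same table, with Pdgfra at 55.9 ± 12.2 TPM (SD, n = 3) against 1.38 ± 0.847 TPM (SD, n = 3). Of the 10 genes, 1 was called higher and 3 lower, against 16.1% higher and 20.8% lower of 13651 genes, and 4 of the 10 had separate groups against 53.9% of all genes. Pdgfra was at 46.8, 51.1 and 69.8 TPM in the controls and at 90.2, 94.8 and 96.7 TPM in the A3B lungs (log2 fold change 0.76 ± 0.15, adjusted p = 0.0119). Tagln was at 220.9, 246.5 and 252.3 TPM in the controls and at 122.5, 126.2 and 165.5 TPM in the A3B lungs (-0.80 ± 0.14, adjusted p = 0.00764). Both calls held under all 10 alternatives run in lung.

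Vim was at 665.8, 786.8 and 856.1 TPM in the controls and at 406.3, 519.9 and 580.7 TPM in the A3B lungs (-0.62 ± 0.16, adjusted p = 0.0258). Sparc was at 317.8, 333.6 and 381.7 TPM in the controls and at 242.9, 251.3 and 280.5 TPM in the A3B lungs (-0.41 ± 0.11, adjusted p = 0.0268). Both lost their call when control lung 87, control lung 88, A3B lung 69 or A3B lung 74 was left out, with adjusted p of up to 0.067 for Vim and 0.0914 for Sparc. Acta2 was at 62.8, 91.4 and 115.6 TPM in the controls and at 45.8, 49.2 and 77.5 TPM in the A3B lungs, where the groups overlapped (-0.63 ± 0.28, adjusted p = 0.121). Dcn was at 23.8, 24.1 and 65.4 TPM in the A3B lungs against 18.9 to 26.3 TPM in the controls, so that lung 70 alone stood above them. That lung also had the highest adipocyte marker sum, at 1036 TPM. Des, Pdgfrb, Fn1 and Postn had log2 fold changes of -0.25, 0.06, 0.15 and -0.34.

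**Figure D3:**
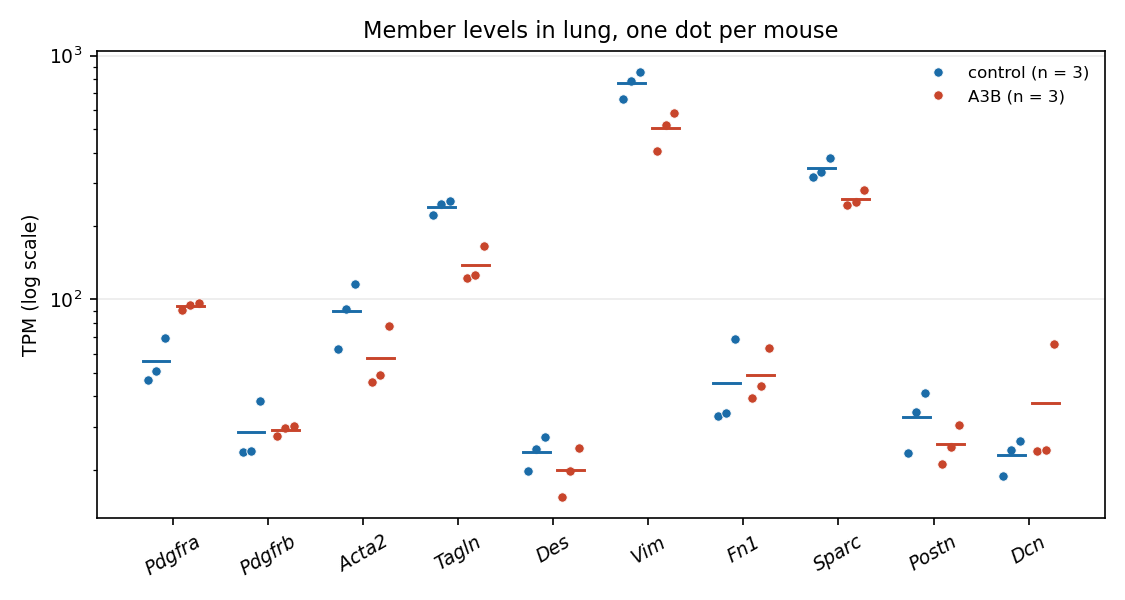
Levels of the 10 genes in lung in TPM on a log axis, with a dot per mouse and a line at the mean of 3 mice per group. The 3 A3B lungs lie above the controls for Pdgfra and below them for Tagln, Vim and Sparc.

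The pathway lists in lung were mixed, where 16.1% of all genes were called higher and 20.8% lower. Of 19 TGF-beta and SRF/YAP target genes, 5 rose and 0 fell, among them Lox, a collagen crosslinking enzyme, by 2.43 (adjusted p = 0.00173), Thbs1 by 2.27, Skil by 0.91 and Actn1 by 0.74. Of 9 ligands, 4 fell and 0 rose: Pdgfb by 2.01, Pdgfa by 0.89, Tgfb2 by 0.57 and Tgfb3 by 0.33. Of 11 receptors, 4 rose, with Tgfbr3 at 1.32, Ednrb at 0.88 and Tgfbr1 at 0.60, and Acvrl1 fell by 0.56. Of 17 fibroblast matrix genes, 3 fell, with Mfap4, a microfibril protein, at -1.63, Mfap5 at -1.11 and Dpt at -0.79, a share below the 20.8% of all genes called lower. Of 14 smooth muscle and pericyte genes, Notch3 and Cald1 rose by 0.84 and 0.37 and Tpm2 and Tpm1 fell by 0.71 and 0.56, in both directions below the share of all genes called. Of 8 quiescent stellate cell genes tested, Reln rose by 1.17, 1 fell and 6 were not called, with a median of 0.10. In both directions this was below the share of all genes. Of 9 endothelial markers tested in lung, 1 was higher and 2 were lower, with a median of -0.19, although their sum was 2984 to 3448 TPM in A3B lungs and 1723 to 2044 TPM in controls, where Lyve1 alone went from 450.5 ± 69.7 to 1982 ± 375.2 TPM. Of 10 macrophage markers, 1 was higher and 1 lower, with a median of 0.46, although their sum was 1077 to 1255 TPM in A3B lungs against 1348 to 1429 TPM in controls, where Lyz2 alone went from 1005 ± 47.9 to 704.1 ± 14.6 TPM. The endothelial and macrophage counts were near or below the shares of all genes. Of 5 lung epithelial and 8 T cell markers, 1 each was lower, and of 5 B cell markers 0 were called. Their medians were -0.19, -0.49 and -1.16. The epithelial call, Sftpc, was lost in 5 of the 6 single omissions and the T cell call, Cd2, in 2. The hepatocyte, ductal, adipocyte, mesothelial and skeletal muscle lists held no call. The part of these cells in the changes was not tested. Mfap5, Tgfb2, Tgfb3, Cald1, Tpm1, Tpm2 and the lower endothelial genes Kdr and Emcn each lost their call in 3 or more of the 6 single omissions, and Actn1 and Dpt in 1.

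The A3B effect on 3 of the 10 genes differed between pancreas and liver, against 6.87% of 19908 genes with a larger effect in pancreas. In an interaction model over the kallisto set, the log2 difference of the effects (pancreas minus liver) was 2.45 ± 0.51 for Pdgfrb (adjusted p = 0.00909), 3.36 ± 0.82 for Fn1 (adjusted p = 0.0177) and 2.69 ± 0.77 for Sparc (adjusted p = 0.0339). Most livers and pancreases came from shared mice. With the mouse as replicate block, Pdgfrb was at 2.31 (adjusted p = 0.0226) and Fn1 at 3.53 (adjusted p = 0.0433), while Sparc at 2.43 lost its call (adjusted p = 0.0555). Without control liver 45 or control pancreas 45, neither Pdgfrb (2.03 and 2.47, adjusted p = 0.0671 and 0.0535) nor Fn1 (3.0 and 2.81, adjusted p = 0.0843 and 0.108) passed. Sparc failed in 8 of its 16 single omissions. In the TPM-table set, Tagln alone of the 10 differed between liver and lung, by 1.65 ± 0.42 (liver minus lung, adjusted p = 0.0334), against 8.81% of 13477 genes with a larger effect in liver. Tagln passed with the replicate block (1.51, adjusted p = 0.0187), but not under quantile normalization (1.31, adjusted p = 0.0606) or in 8 of 12 single omissions, where its adjusted p reached 0.0897. The design gives no test of pancreas against lung, whose sets were processed differently.

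**Figure D4:**
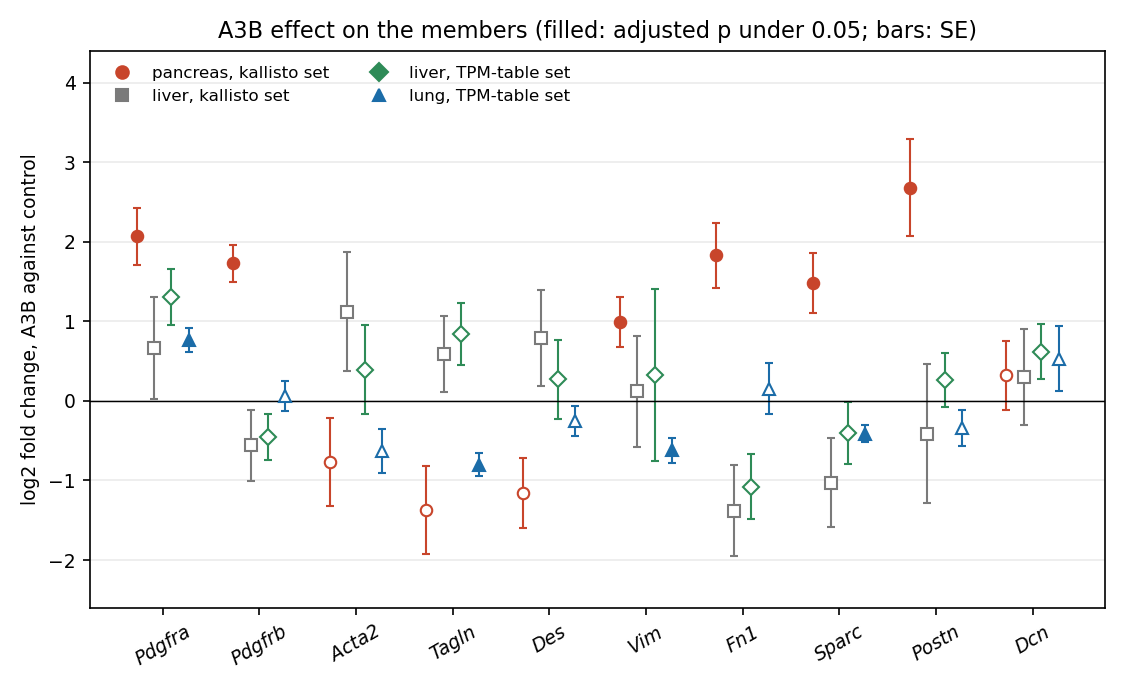
Log2 fold change of each of the 10 genes, A3B against control, in the 4 comparisons, with bars for the SE and filled symbols for an adjusted p under 0.05. Filled symbols appear for 6 genes in pancreas, 4 in lung and 0 in either liver set.

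Fibronectin is also a marker by its splicing: plasma fibronectin from hepatocytes lacks extra domain A, whereas the cellular form made by activated stellate cells and fibroblasts can hold it. The kallisto files list transcripts, so the share of Fn1 TPM in transcripts that hold this coding exon was computed. It lies inside Fn1 at chr1:71603660-71603929 on the minus strand of GRCm38, and 4 of the listed transcripts of GENCODE M21 hold it while 4 skip it. The exon and its junctions are shown because they are what separates these transcripts, with the bases of the exon in capitals, 5′ to 3′.
extra domain A exon: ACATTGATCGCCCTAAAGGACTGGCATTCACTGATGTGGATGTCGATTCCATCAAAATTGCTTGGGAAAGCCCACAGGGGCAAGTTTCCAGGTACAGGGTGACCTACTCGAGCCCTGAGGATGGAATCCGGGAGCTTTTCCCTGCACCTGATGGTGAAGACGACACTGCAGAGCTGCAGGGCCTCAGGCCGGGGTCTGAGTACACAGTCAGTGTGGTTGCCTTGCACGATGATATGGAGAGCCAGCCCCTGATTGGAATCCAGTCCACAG
junction into the exon: aaactgcagtgaccaACATTGATCGCCCTA
junction out of the exon: GAATCCAGTCCACAGccattcctgcgccca
junction that skips the exon: aaactgcagtgaccaccattcctgcgccca

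In liver, transcripts with this exon made up 0.927% and 0.958% of Fn1 TPM in the controls and 1.43%, 1.60%, 2.57%, 3.45%, 5.68% and 9.76% in the A3B livers. All 6 A3B livers lay above both controls, with means of 4.08 ± 3.18% (SD, n = 6) and 0.942 ± 0.0218% (SD, n = 2). The difference of 3.14 percentage points did not pass a two-sided exact permutation test (p = 0.179, 28 arrangements, smallest possible p 0.0357). Liver 125, which had the highest Fn1 level of the A3B livers, also had the highest share. In pancreas the share was 0.870% in control 45, whose Fn1 level was 1.32 TPM, and 17.4% in control 168, against 12.25% to 24.99% in A3B. The A3B pancreases thus lay on both sides of control 168, and the means of 19.2 ± 5.23% (n = 6) and 9.12 ± 11.7% (n = 2) differed by 10.1 percentage points (exact permutation test, p = 0.107). These shares are estimates from reads that transcripts have in common, and 1 transcript annotated as retained intron, which is counted among those that skip the exon, took 43.8% of Fn1 TPM in the A3B pancreases and 60.6% in the control pancreases on average.

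**Figure D5:**
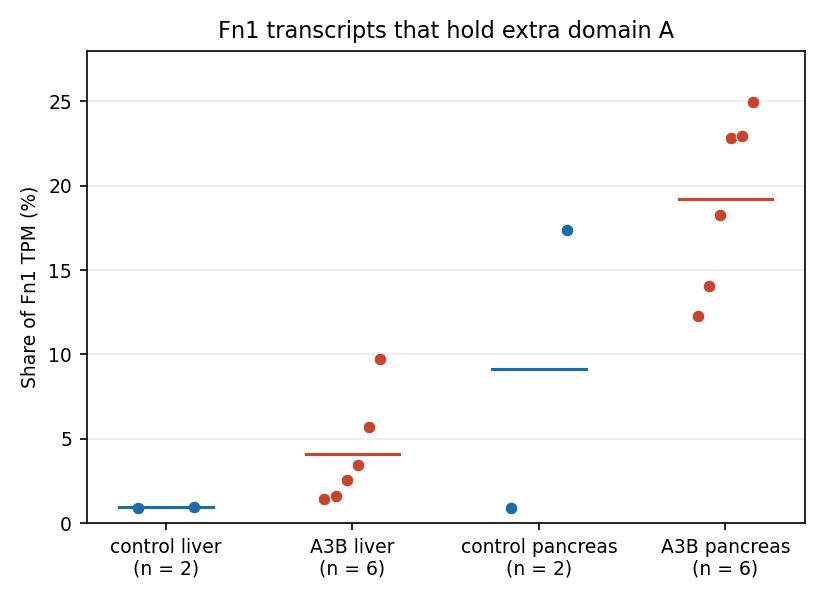
Share of Fn1 TPM in transcripts that hold extra domain A, in percent, with a dot per mouse and a line at each group mean. All 6 A3B livers lie above both control livers, and the control pancreases are far apart at 0.870% and 17.4%.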

How the data were processed

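Bulk RNA-seq of mouse liver, pancreas and lung was analysed from deposited values. The authors made libraries with a stranded kit and quantified liver and pancreas with kallisto on mm10 transcripts, which gave the deposited estimated counts and TPM per transcript. A second deposited table holds TPM per gene for livers and lungs, made by the authors from deduplicated alignments. Transcripts were matched to GENCODE M21 without versions (116640 of 119414, 97.7%) and summed per symbol. Rounded estimated counts were tested with edgeR 4.0.16 (TMM, filterByExpr, quasi-likelihood), and table values with limma 3.58.1 on log2(TPM + 1) after dropping genes averaging under 1 TPM, a scale that understates the change of low genes. P-values were adjusted by Benjamini-Hochberg over all genes tested. The 4 repeated names of the table were left out. DESeq2 1.42.0, other scalings, filters, pseudocounts and omission of each sample were alternatives, and the fits were tested on simulated data. Shares of Fn1 were compared by two-sided exact permutation.

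One gene of the lists is not reported here. The members and gene lists were chosen with earlier results of these data known. The 10 genes were named in every comparison, and up to 4 called genes per list by smallest p; ratios and single-library context genes were chosen after their values were seen. Mouse numbers pair livers and pancreases of an animal, and deviations of the 5 shared A3B mice correlated at -0.0245 to 0.293 across genes. Samples are separate mice within a tissue. With 2 controls per tissue in the kallisto set, precision rests on few animals.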

Additional observations from a re-analysis of the deposited data

Results flagged for a closer look

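Among the 22 groups of 6 A3B values examined for a sample far from the others, 3 held one, and chance flags about 1 group in 20. Vim was at 65.6 TPM in A3B liver 49. Fn1 was at 423.4 TPM in A3B liver 125. Postn was at 116.5 TPM in A3B pancreas 53. The A3B effect differed between pancreas and liver for Pdgfrb by 2.45, for Fn1 by 3.36 and for Sparc by 2.69 (log2, pancreas minus liver), and between liver and lung for Tagln by 1.65 (log2, liver minus lung), each by an interaction term. Each of these calls was lost under some of the settings given above, that of Sparc also with the replicate block. Over single omissions Pdgfrb ran from 2.03 to 2.81, Fn1 from 2.81 to 4.35 and Sparc from 2.48 to 3.04. Tagln was called in 4 of 12 single omissions.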

How the results depend on the processing

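Counts of genes called moved by over 1.5 times under some settings. In the kallisto livers, 636 calls became 1120 with total counts alone and 2351 with DESeq2. In pancreas, 6093 became 13683 with total counts alone and 11553 with limma on log2(TPM + 1), where 98.5% and 98.7% of calls were higher against 53.3%. In the table livers, 913 became 54 without the low filter. For pancreas minus liver, 2368 became 8068 with total counts alone and 3763 with DESeq2, and 1616 with the replicate block, a smaller move. For liver minus lung, 1448 became 2607 with the replicate block and 841 under quantile normalization. Leaving out 1 sample gave 73 to 1599 calls in the kallisto livers, 3829 to 5820 in pancreas, 1 to 1562 in the table livers, 2998 to 4579 in lung, 545 to 3405 for pancreas minus liver and 571 to 3072 for liver minus lung. The lowest came without control liver 168, control pancreas 45, control liver 91, A3B lung 69, control liver 45 and control liver 92. Differences in the extra domain A share ran from 2.0 to 3.67 percentage points in liver and 1.86 to 18.4 in pancreas. The replicate block changed no call among the 10 genes other than that of Sparc. The causes were not tested.

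Sign changes among the 10 genes were seen only for values that were not called in the fit reported. In pancreas, limma on log2(TPM + 1) gave 1.38 for Acta2, 1.13 for Tagln and 1.11 for Des, and total counts alone gave 1.29, 0.55 and 0.78. Efemp1, a called gene outside the 10, turned to 0.98 with total counts alone and 0.76 with limma. The medians of all genes in these 2 fits were 2.29 and 1.75. Over single omissions, Tagln ran from -2.10 to 0.27, Des from -1.84 to 0.30 and Dcn from -0.17 to 1.11. In the kallisto livers Postn was at 0.14 with total counts alone and ran from -1.06 to 0.43, and Vim from -0.62 to 0.40. In the table livers, quantile normalization gave -0.08 for Des and -0.04 for Postn, and omissions gave -0.26 to 0.91 for Acta2 and -0.99 to 1.46 for Vim. In lung, Pdgfrb ran from -0.06 to 0.28 and Fn1 from -0.04 to 0.49. For pancreas minus liver, Dcn was at -0.03 with the replicate block and ran from -0.33 to 1.0. For liver minus lung, Dcn was at -0.17 with the replicate block, quantile normalization gave -0.01 for Pdgfra, -0.23 for Sparc and -0.37 for Dcn, and omissions gave -0.19 to 0.40 for Sparc, -0.16 to 0.55 for Dcn, -0.05 to 0.90 for Des and -0.37 to 2.08 for Vim. The denominator of transcripts that span the exon was chosen after seeing the data and gave 3.78 and 13.0 percentage points.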

Other observations

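The second alternative exon of fibronectin, extra domain B, is held by 1 listed transcript, Fn1-201, which is also 1 of the 4 counted for extra domain A, so the shares of both exons are not separate measurements. This transcript made up 2.49% of Fn1 TPM on average in the A3B livers, within the 4.08% for extra domain A, and in control pancreas 45 both shares were 0.870%. Its share of Fn1 TPM was 0.103% and 0.122% in the control livers and 0.613% to 4.90% in the A3B livers, so that all 6 lay above both controls. In pancreas it was 0.870% and 1.33% in the controls and 2.22% to 11.8% in A3B, again with all 6 above. The control pancreas shares rest on only 0.01146 TPM in control 45 and 0.1023 TPM in control 168. As a share of the transcripts that span the exon, it was 5.54% and 3.64% in the controls and 10.13% to 19.41% in A3B. These shares were not tested.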
